A study of Saccharomyces cerevisiae with 12 samples.

Results

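Most of the 45 genes described here build or remodel the membrane lipids of budding yeast, Saccharomyces cerevisiae, or regulate genes that do. They fall into 14 genes of sterol synthesis, 6 of fatty acid synthesis and activation, 12 of phospholipid metabolism and 8 of sphingolipid synthesis. The other 5 (ATF1, ATF2, INO80, LAG2 and SUR7) carry names that fit the same rule and were kept apart from these classes. All 45 are called lipid genes for short. Members were chosen by name alone: a symbol made of a stem such as ERG, FAS, FAA, CHO, OPI, LCB or PLB and a number, or 1 of a few single names such as MVD1, LAC1, SCS7 and SPT23, on a spot annotated with exactly 1 gene. The desaturase gene OLE1 was left out by that rule. The 45 genes are 45 of the 3127 named genes that had a value on all 6 slides, and 5 of them (ATF2, ERG27, INO80, LCB3 and LCB4) were spotted at 2 positions, which were averaged.

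Yeast membranes hold ergosterol, the fungal counterpart of cholesterol, beside phospholipids and sphingolipids. Fatty acids made from acetyl-CoA by acetyl-CoA carboxylase and fatty acid synthase feed all of these except the sterol ring itself, which comes from the mevalonate pathway. Several steps need iron: the sterol desaturase Erg3, the methyl sterol oxidase Erg25 and the sphingolipid hydroxylase Scs7 hold iron, and the cytochromes P450 Erg11 and Erg5 hold heme. Iron scarcity switches on the transcription factors Aft1 and Aft2, whose targets take up iron. Hydroxyurea inhibits ribonucleotide reductase, an enzyme with an iron centre of its own, and so slows DNA replication.

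Each slide compared the RNA of a mutant with that of its wild-type parent. The strain labelled Y18daft2 (aft1d aft2d) was set against CM3260 after growth to an optical density of 0.5 in rich medium (YPD), and again after a further 2 hours in 200 mM hydroxyurea. A BY4741 aft1d strain was set against BY4741 wild type after the same hydroxyurea treatment. No aft1d slide came from rich medium, and the parents of the strains differ, so a difference between Y18daft2 and the aft1d strain is also a difference between CM3260 and BY4741. Each of the 3 comparisons had 2 slides, with the mutant in channel 2 on slide 1 and in channel 1 on slide 2. The labels do not say whether these RNAs came from separate cultures, so the spread behind the p-values may be technical. The fit took out the part of the difference between slide 1 and slide 2 that the comparisons shared, as a channel effect. The p-values thus measure how that difference varied between the 3 comparisons, and not how well the 2 slides of a comparison agreed.

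Every value below is a log2 ratio, mutant divided by wild type, after each column was centred and a trend shared with the columns of the other comparisons was taken out. A value of 0 is therefore the level of genes at a similar place along that trend, and the comparisons are not independent of each other. The base of the logarithm is not given and was read as 2. The direction is likely rather than settled: it was set from the AFT1 spot, which read -2.78 and -3.31 on the aft1d slides. On the rich medium slides of Y18daft2, AFT1 gave -0.30 and 0.25 and AFT2 gave 0.11 and -0.26. With hydroxyurea AFT1 gave -0.29 and -0.06 and AFT2 gave -0.13 and -0.22, so neither spot was clearly lower in the strain labelled as lacking both genes. The position of these spots relative to the deletions was not analysed here, so they do not check the label. As deposited and before any turning, AFT1 stood at 3.23 on slide 1 and -3.33 on slide 2 of the aft1d strain. FIT3, an iron-regulated cell wall gene that was not used to set the direction, also changed sign with the channel in each comparison, at 2.92 and -2.09 in rich medium, 1.69 and -1.40 for Y18daft2 in hydroxyurea, and 2.37 and -1.68 for the aft1d strain. With the columns left unturned, 12 of the 23 values that had an unadjusted p under 0.05, and were run again in this way, changed sign, among them those of ERG3, ERG25 and ATF2 in the aft1d strain, ELO1, FAA3 and DPP1 in rich medium and FAS1 in both. Because the channels were exchanged between slides, an unturned mean cancels a difference between mutant and wild type. These signs therefore cannot decide the direction. The deposited column medians ran from -0.53 to 0.85, and the strong scan of the first aft1d slide, at 0.85, stood apart. Signal over background was not analysed here.

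Over all named genes, the slides of a comparison correlated across genes at 0.21 in rich medium, -0.27 for Y18daft2 in hydroxyurea and 0.38 for the aft1d strain. Over the 45 lipid genes the same correlations were 0.56, 0.26 and 0.65. These are descriptions across genes, which share slides and are not independent.

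No lipid gene passed the test in any comparison. The test was limma's moderated test over all 3127 genes, with Benjamini-Hochberg adjustment and a threshold of 0.05, and each standard error (SE) below comes from this fit, with n = 2 slides for every mean. A value given below without 1 slide of its comparison comes from a refit, in which the other comparisons set the channel effect. Such a value is therefore not the reading of the slide that remains. For Y18daft2 in rich medium 0 of 45 genes passed, where 0.256% of all genes did, and the lowest adjusted p of a lipid gene was 0.445. In hydroxyurea 0 of 45 passed, beside 0.0959% of all genes, with a lowest adjusted p of 1. In the aft1d strain 0 of 45 passed, beside 0.192% of all genes, with a lowest adjusted p of 0.559.

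At an unadjusted p under 0.05 the counts were 8 of 45, 2 of 45 and 7 of 45. In rich medium the 8 genes split into 4 higher and 4 lower, beside 2.43% and 2.65% of all genes, or 5.08% in all. Both genes of the Y18daft2 comparison in hydroxyurea, FAS1 and CHO2, were higher, beside 0.64% of all genes higher, 0.927% lower and 1.57% in all. All 7 genes of the aft1d comparison (ACC1, ATF1, ATF2, ERG2, ERG25, ERG3 and FAS1) were higher, beside 2.43% of all genes higher, 1.76% lower and 4.19% in all. The fitted values behind these counts moved when 1 slide was left out, as given for single genes below. Such a refit leaves 1 slide in the comparison, and the share of all genes under this p moved with it. Counts from these refits are therefore not set beside the counts here.

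Counted by sign, 13 lipid genes were higher and 11 lower on both slides in rich medium, beside 27.7% and 23.8% of all genes. For Y18daft2 in hydroxyurea 17 were higher and 9 lower on both slides, beside 16.5% and 18.1%, and in the aft1d strain 24 were higher and 11 lower, beside 27.1% and 30.9%. A change of at least 0.5 upwards on both slides was seen for 3 lipid genes in rich medium (0.799% of all genes), 0 for Y18daft2 in hydroxyurea (0.032%) and 1 in the aft1d strain (0.768%). The same size downwards was seen for 0 lipid genes in each, beside 0.799%, 0.224% and 0.384% of all genes.

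**Figure D1:**
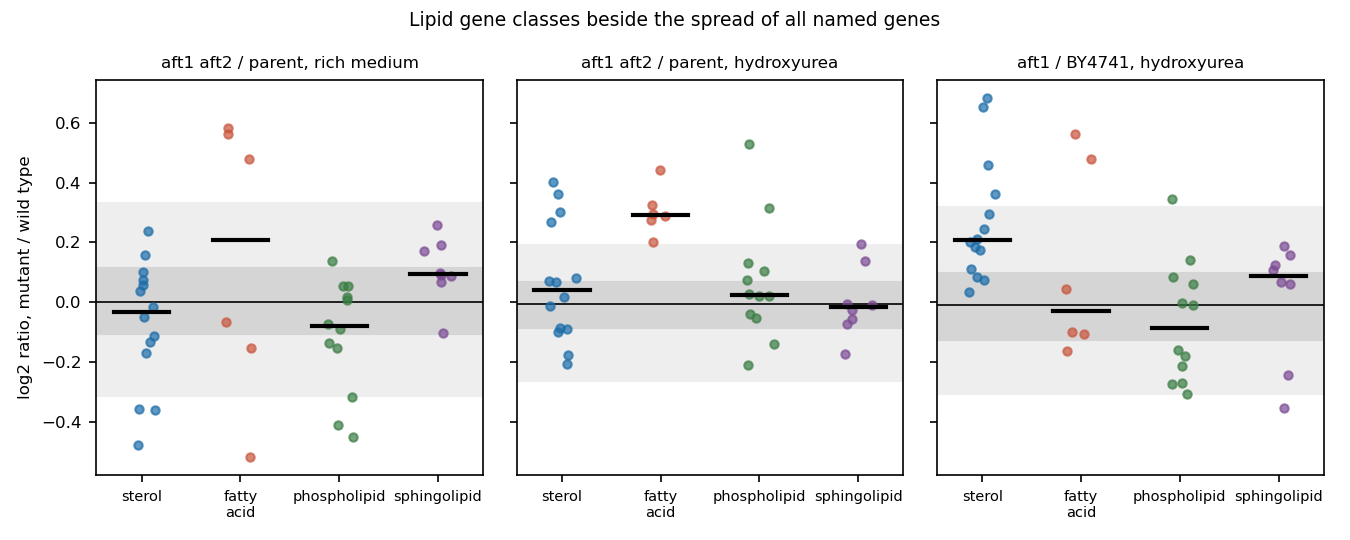
Each point is 1 gene, placed by its mean log2 ratio of mutant over wild type over 2 slides, with the black bar at the median of the class. Dark and light grey bands span the 25th to 75th and the 5th to 95th percentile of all 3127 genes. In the aft1d panel all 14 sterol genes lie above 0 with a median of 0.21, and in the hydroxyurea panel of Y18daft2 all 6 fatty acid genes do, with a median of 0.29.

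Sterol synthesis genes stood highest in the aft1d strain. All 14 lay above 0 there, from 0.03 for ERG1 to 0.68 for ERG3, with a median of 0.21 where all genes had -0.01. On both slides 12 of 14 were higher, beside 27.1% of all genes, and 0 were lower on both slides, beside 30.9%. The exceptions were ERG1 and ERG29, which were below 0 on slide 1 and above it on slide 2. For Y18daft2 the same 14 genes were mixed: the median was -0.03 in rich medium, with 1 gene higher and 3 lower on both slides, and 0.04 in hydroxyurea, with 4 higher and 3 lower. In the values as deposited, only turned by channel, the sterol median of the aft1d strain was -0.05 and that of all genes -0.23, so the class lay above the middle of all genes there too but not above 0, and 2 of 14 genes were above 0 on both slides.

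MVD1 and ERG20, which act before squalene, were above 0 on both aft1d slides. MVD1, which makes isopentenyl pyrophosphate at the end of the mevalonate pathway, read 0.26 and 0.34 on the aft1d slides. Its Y18daft2 slides disagreed, at 0.06 and -0.28 in rich medium, then -0.21 and 0.18 in hydroxyurea. ERG20, the farnesyl pyrophosphate synthase, was below 0 on all 4 Y18daft2 slides, at -0.43 and -0.28 in rich medium, then -0.26 and -0.14 in hydroxyurea. On the aft1d slides it read 0.14 and 0.01. Its mean of -0.36 (SE 0.159) in rich medium did not pass (limma adjusted p = 0.973). ERG1, the squalene epoxidase, had slides far apart in hydroxyurea, at 0.23 and -0.58 for Y18daft2. The second of these came from the weak scan alone, since the strong scan held an exact zero, which was treated as missing. In rich medium its slides also differed in sign, at -0.07 and 0.38.

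ERG24, ERG25, ERG26, ERG27 and ERG28 act around the removal of methyl groups from the sterol ring, and in Y18daft2 they did not share a sign. ERG25, the iron-dependent methyl sterol oxidase, read 0.94 and 0.37 on the aft1d slides, a mean of 0.65 (SE 0.246, 1.57-fold; limma adjusted p = 1), the 16th highest of 3127 genes. On the Y18daft2 slides it read -0.11 and 0.18 in rich medium, then -0.11 and 0.91 in hydroxyurea. Without slide 1 of the aft1d strain the fitted value was 0.04, and without slide 2 it was 1.26. Both lie outside the slide readings, as the refit corrects the remaining slide by a channel effect estimated from the Y18daft2 slides. The aft1d slides agree in sign, while the hydroxyurea slides of Y18daft2 differ by more than the aft1d mean itself. ERG26, the sterol dehydrogenase that follows, was above 0 on all 4 hydroxyurea slides, at 0.22 and 0.32 for Y18daft2 and 0.20 and 0.21 for the aft1d strain. ERG27, the keto reductase, read -0.30 and -0.41 in rich medium, -0.05 and 0.18 for Y18daft2 in hydroxyurea and 0.23 and 0.26 in the aft1d strain.

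ERG28 encodes the membrane protein that tethers these enzymes to each other, and its values split by medium. In rich medium it read -0.33 and -0.62 in Y18daft2, the lowest sterol gene there. Its mean was -0.48 (SE 0.168, 1.39-fold lower, limma adjusted p = 0.702), or -0.27 without slide 2. In hydroxyurea it read 0.36 and 0.36 in Y18daft2 and 0.24 and 0.48 in the aft1d strain. The hydroxyurea slides of Y18daft2 thus lay above 0 and the rich medium slides below it, as they did for 5.56% of all genes. The difference between the media was 0.84 (SE 0.237), the 21st highest of all genes, with an unadjusted p of 0.00687 and a limma adjusted p of 0.895. ERG24, the sterol reductase, gave no clear sign in Y18daft2, with 0.10 and -0.44 in rich medium, then -0.25 and 0.07 in hydroxyurea, and read 0.05 and 0.31 in the aft1d strain. ERG29, an endoplasmic reticulum protein assigned to the pathway, stayed between -0.35 and 0.28 on all 6 slides.

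Of the late enzymes, ERG3 and ERG2 carried the highest aft1d values. ERG3, the iron-dependent desaturase of the sterol ring, read 0.90 and 0.47 on the aft1d slides, a mean of 0.68 (SE 0.214, 1.60-fold; limma adjusted p = 0.916), the 12th highest of all genes. The fitted value was 0.20 without slide 1 of that strain and 1.16 without slide 2, again outside the slide readings. On the Y18daft2 slides it read -0.06 and 0.21 in rich medium, then -0.09 and 0.69 in hydroxyurea, slide by slide close to ERG25. ERG2, the sterol isomerase, read 0.39 and 0.53 in the aft1d strain, a mean of 0.46 (SE 0.155; limma adjusted p = 0.987). Its Y18daft2 values were small, at -0.01 and 0.13 in rich medium, then 0.05 and 0.10 in hydroxyurea. ERG4, the reductase of the last step, stayed between -0.11 and 0.21 on all 6 slides.

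The sterol acyltransferases ARE1 and ARE2 store sterols as esters. ARE2 read 0.16 and 0.32 in rich medium, -0.003 and -0.17 for Y18daft2 in hydroxyurea, and 0.17 and 0.17 in the aft1d strain. ARE1 read 0.20 and -0.004, then -0.10 and -0.10, then 0.13 and 0.29. Both were below 0 on the hydroxyurea slides of Y18daft2 and above 0 on those of the aft1d strain, as were 5.5% of all genes. The difference of 0.31 for ARE1 and 0.26 for ARE2 did not pass (limma adjusted p = 0.999 for each).

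**Figure D2:**
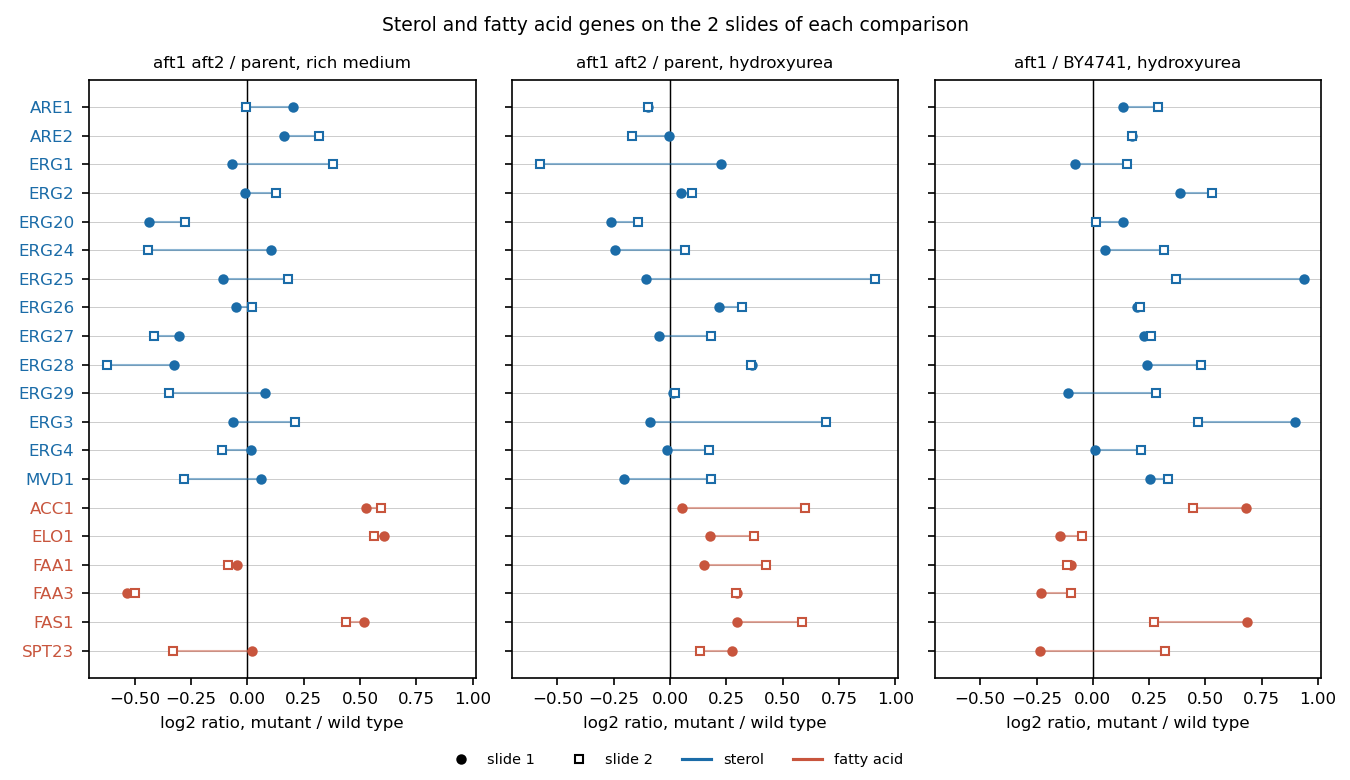
Log2 ratios of mutant over wild type for the 14 sterol genes (blue) and 6 fatty acid genes (red), with slide 1 as a filled circle, slide 2 as an open square and a line joining them. ERG3 and ERG25 reach 0.90 and 0.94 on aft1d slide 1 and 0.69 and 0.91 on Y18daft2 hydroxyurea slide 2, and ACC1 and FAS1 lie right of 0 on all 6 slides.

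Among the fatty acid genes, the synthesis enzymes lay above 0 and the acyl-CoA synthetases below 0 in rich medium. ACC1, the acetyl-CoA carboxylase that commits carbon to fatty acids, read 0.53 and 0.60 in Y18daft2 in rich medium, 0.05 and 0.60 in hydroxyurea, and 0.68 and 0.44 in the aft1d strain. All 6 slides were above 0, with means of 0.56 (SE 0.182, 1.48-fold) in rich medium and 0.56 in the aft1d strain, each at an unadjusted p of 0.0138. After adjustment in limma p was 0.616 and 0.98. Without slide 1 the aft1d value was 0.29. ACC1 ranked 32nd of 3127 genes in rich medium and 25th in the aft1d strain. A second spot, annotated with both ACC1 and SMM1 and so not counted, gave -0.01 and 0.31 in rich medium, then 0.02 and 0.17 in the aft1d strain.

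FAS1, the beta subunit of fatty acid synthase, had nearly the same mean over slides in every comparison once the trend was taken out. Its slides read 0.52 and 0.44 in rich medium, 0.30 and 0.59 for Y18daft2 in hydroxyurea, and 0.68 and 0.27 in the aft1d strain. The means were 0.48, 0.44 and 0.48 (SE 0.176 each), or 1.39-fold, 1.36-fold and 1.39-fold, each at an unadjusted p under 0.05, with limma adjusted p of 0.761, 1 and 1. With the trend left in, the means were 0.39, 0.61 and 0.36 in the same order. The fitted hydroxyurea values with the trend taken out moved with single slides. Without slide 1 and without slide 2 in turn, they were 0.71 and 0.17 for Y18daft2, and 0.22 and 0.74 for the aft1d strain. The value of 0.68 came from the weak scan alone, as the strong scan of that slide held an exact zero. ACC1, FAS1 and the acetyltransferase gene ATF1 were the 3 of 45 lipid genes above 0 on all 6 slides, beside 2.14% of all genes.

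ELO1, the elongase of medium-chain fatty acids, read 0.61 and 0.56 in rich medium, a mean of 0.58 (SE 0.157; limma adjusted p = 0.445), the 27th highest of all genes. In hydroxyurea it read 0.18 and 0.37 in Y18daft2, and it was slightly below 0 in the aft1d strain, at -0.15 and -0.05. At least 0.5 on both slides was reached in rich medium by ACC1, ELO1 and ATF1, 3 of 45 beside 0.799% of all genes.

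FAA3, a long-chain acyl-CoA synthetase, was the lowest lipid gene in rich medium, at -0.53 and -0.50, a mean of -0.52 (SE 0.155, 1.43-fold lower; limma adjusted p = 0.546). In hydroxyurea it read 0.30 and 0.29 in Y18daft2 and -0.23 and -0.10 in the aft1d strain. The change of sign between media in Y18daft2 was seen for 5.56% of all genes. The difference between the media was 0.81 (SE 0.22; unadjusted p = 0.00548, limma adjusted p = 0.869). The strong and weak scans of its rich medium slides differed in size but not in sign, at -0.67 and -0.40 on slide 1 and -0.77 and -0.22 on slide 2. FAA1, the major synthetase of this family, showed the same signs at smaller size, at -0.04 and -0.09 in rich medium, 0.15 and 0.43 for Y18daft2 in hydroxyurea and -0.10 and -0.12 in the aft1d strain.

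SPT23, a membrane-bound transcription factor that activates OLE1, read 0.02 and -0.33 in rich medium. It read 0.27 and 0.13 for Y18daft2 in hydroxyurea and -0.24 and 0.32 in the aft1d strain. Its sign differed between the slides in both rich medium and the aft1d strain. Taken as a class, all 6 fatty acid genes were above 0 on both hydroxyurea slides of Y18daft2, beside 16.5% of all genes, from 0.20 for SPT23 to 0.44 for FAS1, with a median of 0.29 where all genes had -0.01. The median was 0.40 without slide 1 of that comparison and 0.18 without slide 2. In the median-centred values with the trend left in, the class median was 0.43 and 1 of the 6 genes was above 0 on both slides. As deposited, 0 of 6 were. In rich medium the class median was 0.21 with 3 genes higher and 2 lower on both slides, and in the aft1d strain -0.03 with 2 higher and 3 lower.

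The size of single-slide values depended on the removal of the trend, while the slide means moved less. Median-centred with the trend left in, FAS1 read -0.27 and 1.06 in rich medium and ERG3 read -0.73 and 0.80, each with its slides on opposite sides of 0. The means with the trend left in were 0.39 for FAS1 in rich medium, 0.58 for ACC1 in rich medium, 0.57 for ERG3 and 0.54 for ERG25 in the aft1d strain, and 0.55 for CHO2 in hydroxyurea. Agreement between the slides of a comparison is thus read after the trend was taken out.

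**Figure D3:**
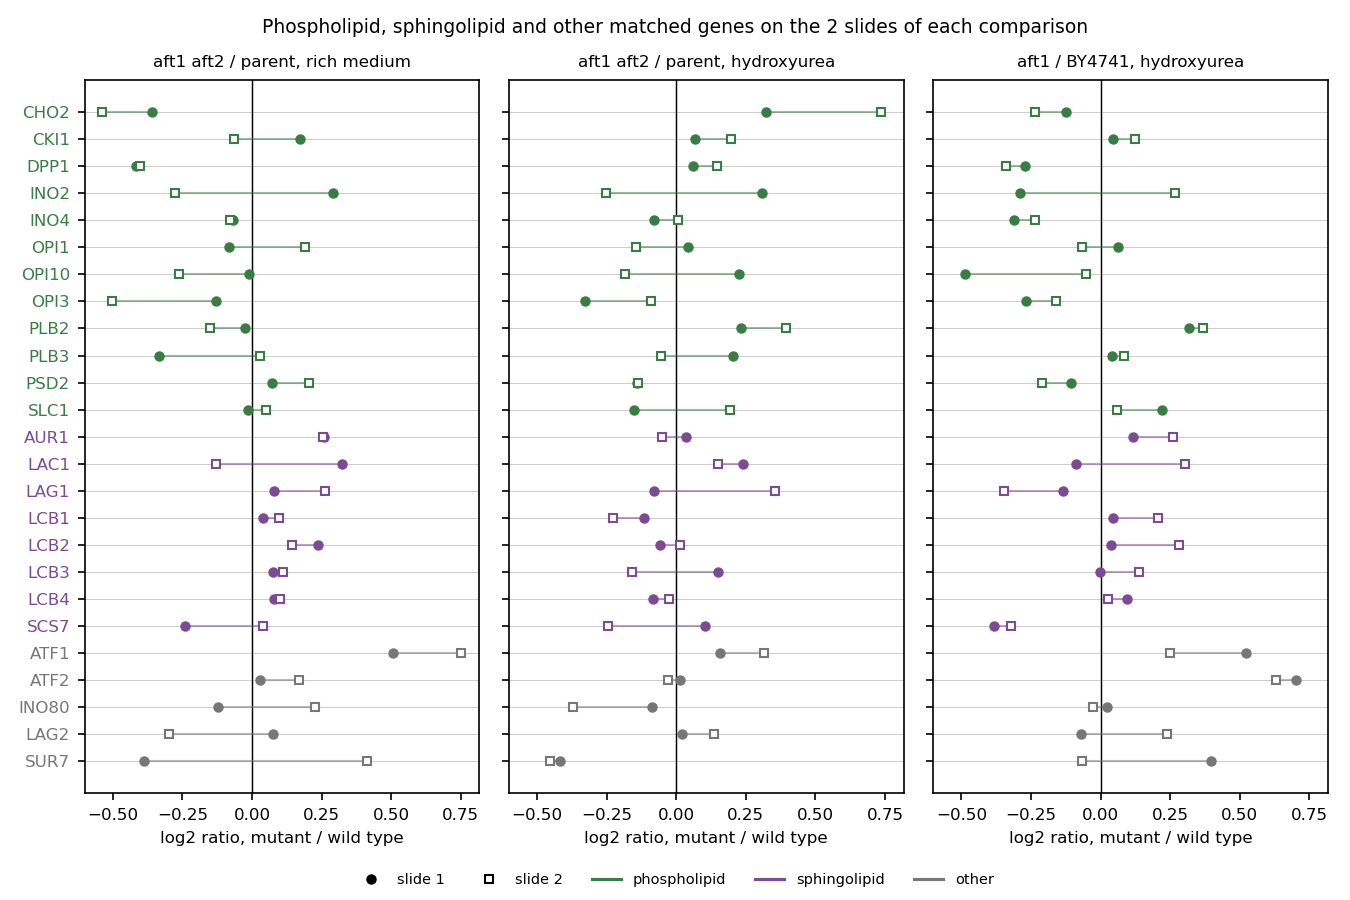
Log2 ratios of mutant over wild type for 12 phospholipid genes (green), 8 sphingolipid genes (purple) and 5 other genes matched by name (grey), drawn as for the sterol genes. CHO2 lies left of 0 in rich medium (-0.36 and -0.54) and right of 0 in hydroxyurea (0.32 and 0.74) in Y18daft2, and ATF2 stands at 0.70 and 0.63 in the aft1d strain.

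Phospholipid genes had medians near 0, at -0.08, 0.02 and -0.08 in the order rich medium, Y18daft2 in hydroxyurea and aft1d strain, but held the largest difference between media. CHO2, the methyltransferase that begins the conversion of phosphatidylethanolamine to phosphatidylcholine, read -0.36 and -0.54 in rich medium. In hydroxyurea it read 0.32 and 0.74 in Y18daft2, the 7th highest gene of all by its mean of 0.53 (SE 0.173, 1.44-fold; limma adjusted p = 1). Without slide 1 that value was 0.81 and without slide 2 it was 0.25, and the rich medium value was -0.28 without slide 2 there. In the aft1d strain it read -0.12 and -0.24. Its Y18daft2 slides were thus below 0 in rich medium and above 0 in hydroxyurea, as they were for 5.56% of all genes. The difference between media was 0.98 (SE 0.245, 1.97-fold), the 9th highest of all genes, with an unadjusted p of 0.00354 and a limma adjusted p of 0.869. The difference between the aft1d strain and Y18daft2 in hydroxyurea was -0.71 (SE 0.245; limma adjusted p = 0.999), or -0.43 without slide 2 of Y18daft2 in hydroxyurea.

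OPI3, the methyltransferase that completes the same conversion, did not follow CHO2. It was below 0 on all 6 slides, at -0.13 and -0.50, -0.33 and -0.09, and -0.27 and -0.16 in the same order. It was the 1 lipid gene lower on every slide, beside 1.79% of all genes, and its means of -0.32, -0.21 and -0.21 (SE 0.173 each) had limma adjusted p values of 1. On slide 2 in rich medium its strong scan read -0.80 and its weak scan -0.21, the widest gap between scans of any lipid gene on that slide.

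Of the other biosynthetic genes, PSD2, a phosphatidylserine decarboxylase of the endosomal system, read 0.07 and 0.20, then -0.14 and -0.14, then -0.11 and -0.21. CKI1, the choline kinase, stayed between -0.06 and 0.20, and SLC1, an acyltransferase that makes phosphatidic acid, between -0.15 and 0.22. None of the 3 reached an unadjusted p under 0.05 in any comparison.

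DPP1, a vacuolar lipid phosphatase, read -0.42 and -0.40 in rich medium, a mean of -0.41 (SE 0.156, 1.33-fold lower; limma adjusted p = 0.836). In hydroxyurea it read 0.06 and 0.15 in Y18daft2 and -0.27 and -0.34 in the aft1d strain. The difference between media was 0.51 (SE 0.22; unadjusted p = 0.0459, limma adjusted p = 1). PLB2, a phospholipase B, was highest of the class in the aft1d strain at 0.32 and 0.37, read 0.23 and 0.40 in Y18daft2 in hydroxyurea, and was just below 0 in rich medium, at -0.02 and -0.15. PLB3, the related phospholipase, read -0.34 and 0.03, 0.20 and -0.05, and 0.04 and 0.08.

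INO2, INO4 and OPI1 regulate phospholipid synthesis by inositol and choline. Taken with OPI10, they had medians of -0.03 in rich medium, -0.01 for Y18daft2 in hydroxyurea and -0.14 in the aft1d strain. INO2, an activator, changed sign between slides in every comparison, at 0.29 and -0.28, 0.31 and -0.25, and -0.29 and 0.27, so that its means ran only from -0.01 to 0.03. INO4, its partner, read -0.07 and -0.08 in rich medium, -0.08 and 0.01 for Y18daft2 in hydroxyurea, and -0.31 and -0.24 in the aft1d strain. OPI1, the repressor of these genes, had means from -0.05 to 0.05 with slides of opposite sign each time. OPI10, named for inositol overproduction in its mutant, read -0.01 and -0.26, 0.23 and -0.18, and -0.49 and -0.05.

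Sphingolipid genes lay close to 0 for Y18daft2, with means from -0.10 to 0.26 in rich medium and from -0.17 to 0.19 in hydroxyurea. In rich medium 6 of 8 were above 0 on both slides, beside 27.7% of all genes, with a class median of 0.09. That count holds only after the trend was taken out. Median-centred with the trend left in, all 6 had slides on opposite sides of 0, such as -0.62 and 0.77 for LCB2. LCB4 then read 0.22 and -0.22. AUR1, the synthase of inositol phosphorylceramide, was the highest of the class in rich medium, at 0.26 and 0.26. It read 0.03 and -0.05 in Y18daft2 in hydroxyurea and 0.12 and 0.26 in the aft1d strain. LCB1 and LCB2 encode the subunits of serine palmitoyltransferase, the first enzyme of the pathway. LCB1 read 0.04 and 0.10 in rich medium, -0.12 and -0.23 for Y18daft2 in hydroxyurea and 0.04 and 0.21 in the aft1d strain. LCB2 read 0.24 and 0.14, -0.06 and 0.01, and 0.04 and 0.28. The long-chain base phosphatase LCB3 and kinase LCB4 stayed between -0.16 and 0.15 on all 6 slides.

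Of the ceramide synthase genes, LAC1 was highest of the class for Y18daft2 in hydroxyurea, at 0.24 and 0.15, but had slides of opposite sign in the other comparisons. LAG1 read 0.08 and 0.26 in rich medium, then -0.08 and 0.35 in hydroxyurea, and was below 0 in the aft1d strain, at -0.13 and -0.35. SCS7, the iron-containing hydroxylase, was the lowest lipid gene in the aft1d strain, at -0.38 and -0.32, a mean of -0.35 (SE 0.173; limma adjusted p = 1). On the Y18daft2 slides it read -0.24 and 0.04 in rich medium, then 0.10 and -0.25 in hydroxyurea. The 3 measured iron enzymes thus did not share a sign in the aft1d strain, with ERG3 and ERG25 above 0 on both slides and SCS7 below it. ERG5, ERG11 and SUR2 and the sterol and fatty acid regulators UPC2, ECM22 and MGA2 were not analysed here.

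The alcohol acetyltransferases ATF1 and ATF2, which make acetate esters and also acetylate sterols in the case of ATF2, matched the rule by name. ATF1 read 0.51 and 0.75 in rich medium, the 21st highest gene at a mean of 0.63 (SE 0.169, 1.55-fold; limma adjusted p = 0.445), then 0.16 and 0.32 in hydroxyurea and 0.52 and 0.25 in the aft1d strain. Its aft1d mean of 0.39 changed to a fitted 0.15 without slide 1 and 0.63 without slide 2. ATF2 was near 0 in Y18daft2, at 0.03 and 0.17 in rich medium, then 0.01 and -0.03 in hydroxyurea. In the aft1d strain it read 0.70 and 0.63, a mean of 0.67 (SE 0.157, 1.59-fold; limma adjusted p = 0.559), the 14th highest of all genes and the 1 lipid gene at or above 0.5 on both slides there, beside 0.768% of all genes. The difference between the aft1d strain and Y18daft2 in hydroxyurea was 0.67 (SE 0.222; unadjusted p = 0.015, limma adjusted p = 0.999).

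The remaining matches by name were also kept apart from the lipid classes. INO80, the ATPase of a chromatin remodelling complex, read -0.12 and 0.23, -0.09 and -0.37, and 0.02 and -0.03. SUR7, a protein of plasma membrane eisosomes, read -0.39 and 0.41 in rich medium, -0.42 and -0.45 in Y18daft2 in hydroxyurea, where it was the lowest of the 45, and 0.40 and -0.07 in the aft1d strain. LAG2, known from replicative lifespan, stayed between -0.30 and 0.24.

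**Figure D4:**
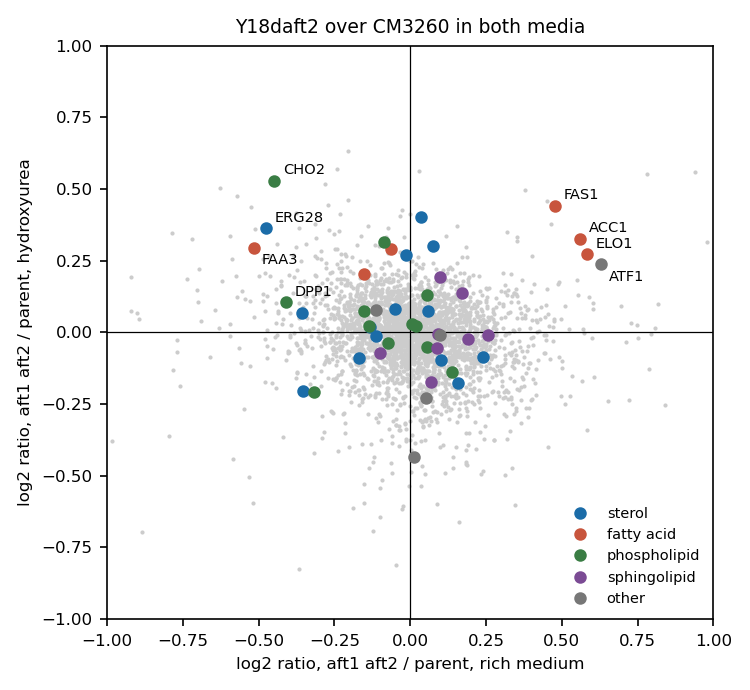
Each point is 1 gene, placed by its mean log2 ratio of Y18daft2 over CM3260 in rich medium (horizontal) and in hydroxyurea (vertical). Lipid genes are coloured by class, all other named genes are grey, and 12 genes outside the axes are not drawn. CHO2, ERG28, FAA3 and DPP1 lie at upper left, below 0 in rich medium and above 0 in hydroxyurea, and FAS1, ACC1, ELO1 and ATF1 lie at upper right.

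Between media, Y18daft2 differed in sign on all 4 slides for 10 lipid genes. Lower in rich medium and higher in hydroxyurea were CHO2, DPP1, ERG28, FAA1, FAA3 and PLB2, 6 of 45 beside 5.56% of all genes. The reverse held for ARE2, LCB1, LCB4 and PSD2, 4 of 45 beside 5.12%. At an unadjusted p under 0.05 the difference was positive for CHO2, DPP1, ERG28 and FAA3, 4 of 45 beside 1.89% of all genes in that direction, and negative for 0 of 45, beside 1.6%, or 3.49% of all genes in either direction. After adjustment in limma 0 of 45 passed, as did 0 of all 3127 genes.

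Within hydroxyurea, 8 lipid genes were above 0 on all 4 slides of both mutants, beside 4.73% of all genes: ACC1, ATF1, CKI1, ERG2, ERG26, ERG28, FAS1 and PLB2. Of these, ATF1 and ERG28 were also above 0 on all 4 slides when median-centred with the trend left in. ACC1, ERG2, ERG26, FAS1 and PLB2 were then below 0 on slide 1 of Y18daft2, and CKI1 on slide 1 of the aft1d strain. With the trend taken out, another 5 lipid genes were above 0 on both aft1d slides and below 0 on both Y18daft2 slides. They were ARE1, ARE2, ERG20, LCB1 and LCB4, beside 5.5% of all genes. The difference between the mutants had an unadjusted p under 0.05 for ATF2, which was higher in the aft1d strain (1.54% of all genes were), and CHO2, which was lower (0.895%), or 2 of 45 beside 2.43% in all. It passed for 0 of 45 after adjustment, beside 0.032%.

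**Figure D5:**
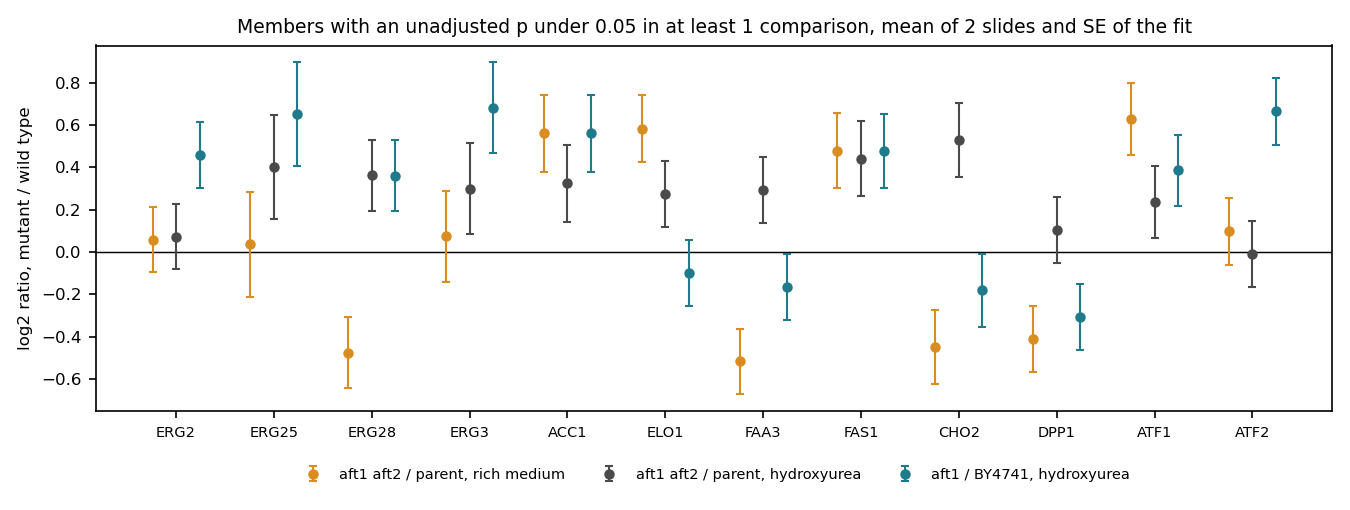
Mean log2 ratio of 2 slides with the SE of the fit for the 12 lipid genes at an unadjusted p under 0.05 in at least 1 comparison. FAS1 sits between 0.44 and 0.48 in all 3 comparisons, ERG2, ERG3, ERG25 and ATF2 are highest in the aft1d strain, and CHO2, ERG28, FAA3 and DPP1 cross 0 between rich medium and hydroxyurea.

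Other genes of these pathways, listed by role and apart from the members, were read from the same fit. Of 36 listed genes of sterol transport, electron supply and sterol-responsive cell wall proteins 21 were measured, of 28 of fatty acid handling 17, of 33 of phospholipid and storage lipid handling 17 and of 15 of sphingolipid handling 9. The phospholipid list held CTR1 as an old name of the choline transporter, a symbol that now belongs to a copper transporter, beside HNM1. In limma 0 of these genes passed. An unadjusted p under 0.05 was reached by 3 in rich medium, 0 for Y18daft2 in hydroxyurea and 4 in the aft1d strain, where 5.08%, 1.57% and 4.19% of all genes did. DAN1, a cell wall mannoprotein made without oxygen, read 0.46 and 1.13 in rich medium, and TIR2, of the same kind, read 0.81 and 0.51 in the aft1d strain. CYB5, the cytochrome b5 that passes electrons to sterol and lipid desaturases, read -0.34 and -0.60 in rich medium, then 0.25 and 0.28 in Y18daft2 in hydroxyurea, the same signs as ERG28 in these comparisons. IFA38, the keto reductase of fatty acid elongation, read -0.50 and -0.30 in rich medium, opposite in sign to ELO1.

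The other 3 were higher in the aft1d strain: SUT1, a regulator of sterol uptake, at 0.30 and 0.49, SCT1, a glycerol phosphate acyltransferase, at 0.48 and 0.35, and SKN1, a protein of glucan synthesis, at 0.56 and 0.38. The list medians lay between -0.11 and 0.13, both extremes coming from sphingolipid handling, and sterol handling in the aft1d strain had a median of 0.04, lower than the 0.21 of the sterol synthesis genes.

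With a trend axis taken from all 12 columns, the comparison's own columns included, an alternative added after the data were seen, 84, 5 and 44 genes passed in place of 8, 3 and 6, or 2.69%, 0.16% and 1.41% of all genes. For the difference between media 28 genes passed, 0.895% of all genes, in place of 0. Lipid genes past the threshold were then ACC1, ATF1, ELO1 and FAA3 in rich medium, ATF2 and ERG3 in the aft1d strain, and CHO2, ERG28 and FAA3 for the difference between media, with limma adjusted p from 0.0196 to 0.046. Their means were nearly the same and their SEs smaller, such as 0.119 in place of 0.182 for ACC1 in rich medium. That no lipid gene passed in the main fit thus depends on the choice of axis. The rise was general: an unadjusted p under 0.05 was then reached by 13.3% of all genes in rich medium, in place of 5.08%. In the aft1d strain it was 14.1% in place of 4.19%. This axis holds the column it corrects, and whether the smaller SEs come from that was not tested. Fitted on its own slides alone, and so without a channel effect, the aft1d comparison had 57 of 3127 genes past the threshold in place of 6. Among them were the lipid genes ACC1, ATF2, ERG25 and ERG3, with limma adjusted p from 0.0169 to 0.0429.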

How the data were processed

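RNA ratios were measured on 6 spotted slides with 2 channels, each deposited as a strong and a weak scan, 12 columns in all. The authors deposited log ratios per spot, read here as log2, and the methods behind them are not given in the sources used here. Of 6912 spots 3344 had 1 gene symbol, 387 had several and 3181 had none in GEO's platform annotation. All 45 members matched RefSeq by entrez id with the same symbol. The members, lists and settings were chosen with earlier results of these data known.

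Exact zeros of strong scans (623 of 41472 values, 1 each in FAS1, ATF2, OPI1, PSD2 and ERG1) were set to missing and columns were median-centred. A lowess curve (span 0.3, 3 iterations) against the mean of the other comparisons' columns was subtracted. Columns were turned by the channel of the mutant, scans averaged per slide and spots per gene. R 4.3.3 and limma 3.58.1 fitted 3 comparison coefficients and a channel coefficient (2 residual degrees of freedom) to 3127 genes, with Benjamini-Hochberg adjustment over all of them. The channel coefficient serves as the replicate block, because the replicate number marks the channel of the mutant. The fit was tested on simulated data.

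Named members were those at an unadjusted p under 0.05, the highest and lowest of each class, iron enzymes and regulators. Others were named after their values were seen. No sequence tables were used, so no promoter was searched.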

Additional observations from a re-analysis of the deposited data

Results flagged for a closer look

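For 4 lipid genes the ratio of Y18daft2 over CM3260 was below 0 on both rich medium slides and above 0 on both hydroxyurea slides, with an unadjusted p under 0.05 for the difference between the media. The difference was 0.98 for CHO2, 0.51 for DPP1, 0.84 for ERG28 and 0.81 for FAA3, and none of these passed in limma after adjustment over all genes. CHO2 also had opposite signs in the mutants in hydroxyurea, with a difference of -0.71 between the aft1d strain and Y18daft2, which did not pass either. The median of the 8 sphingolipid genes was below 0 on both hydroxyurea slides of Y18daft2 and above 0 on the slides of the other comparisons. Averaged over slides, hydroxyurea minus rich medium gave -0.11 for Y18daft2, and the aft1d strain minus Y18daft2 in hydroxyurea gave 0.10. With the trend left in, the median was 0.08 in hydroxyurea and 0.06 in rich medium, so that the sign of the difference between media turned, and as deposited the medians were 0.03 and 0.06. These median differences were not tested.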

How the results depend on the processing

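The 12 lipid genes with an unadjusted p under 0.05 were run again in the comparisons where they had it, 23 values in all, and these kept their sign and stayed short of the threshold when any 1 slide was left out. Their fitted sizes moved, most for ERG25 (0.04 to 1.26) and ERG3 (0.20 to 1.16) in the aft1d strain, where the other comparisons then set the channel effect. With columns left unturned, 12 of the 23 changed sign: ACC1 (-0.118), ATF1 (-0.137), ATF2 (-0.036), ERG25 (-0.284), ERG3 (-0.216) and FAS1 (-0.205) in the aft1d strain, DPP1 (0.0066), ELO1 (-0.022), FAA3 (0.019) and FAS1 (-0.041) in rich medium, FAA3 between media (-0.021) and ATF2 between mutants (-0.016). This setting left 0 genes past the threshold in each comparison. With channels exchanged between slides, it cancels a difference between mutant and wild type by design, so it cannot show how stable the values are. Its class medians were 0.117 and -0.021 for fatty acid genes of Y18daft2 in hydroxyurea and rich medium, 0.024 for phospholipid genes in the aft1d strain, -0.044 and 0.015 for sphingolipid genes of Y18daft2 in hydroxyurea and rich medium, and 0.055 and -0.011 for sterol genes in the aft1d strain and in rich medium.

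The count of all genes past the threshold in rich medium, 8 here, was 2 as deposited, 5 with the trend left in, 14 from weak scans, 1 from strong scans, 0 from its own slides alone and 84 with the axis from all columns. Without the channel coefficient, which is the replicate block, it was 15, and none of the 23 values passed the threshold. Lipid genes at an unadjusted p under 0.05 then numbered 12 in the aft1d strain, 8 for Y18daft2 in hydroxyurea and 7 between mutants, where 8.89%, 3.17% and 6.59% of all genes had one, in place of 4.19%, 1.57% and 2.43%. For Y18daft2 in hydroxyurea, 3 here, it was 1 from strong scans, 7 from its own slides and 5 with the axis from all columns. For the aft1d strain, 6 here, it was 3 as deposited, 0 from strong scans, 57 from its own slides, with 4 lipid genes, and 44 with the axis from all columns. That axis gave 4 lipid genes in rich medium, 2 in the aft1d strain and 3 of 28 genes (0.895% of all) for the difference between media. Leaving out 1 slide gave 10 to 30 genes in rich medium (30 without its slide 1), 1 to 7 for Y18daft2 in hydroxyurea and 1 to 15 for the aft1d strain, and 0 lipid genes each time.

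Class medians in rich medium were as follows: sterol -0.059 as deposited, -0.061 with the trend left in, -0.0037 from weak and -0.090 from strong scans, fatty acid -0.037 from strong scans, phospholipid -0.129, -0.131 and -0.165 as deposited, with the trend left in and from strong scans, and sphingolipid 0.061, 0.059 and 0.140 in that order. For Y18daft2 in hydroxyurea they were 0.426 for fatty acid and 0.076 for sphingolipid genes with the trend left in, and 0.029 for the latter as deposited. In the aft1d strain they were -0.054, -0.21, -0.304 and -0.143 as deposited, in the order sterol, fatty acid, phospholipid and sphingolipid, where all genes had -0.228, and -0.128 for phospholipid genes from strong scans. With 1 slide left out the medians in rich medium ran from -0.128 to 0.033 (sterol), 0.159 to 0.308 (fatty acid; 0.182 to 0.399 for Y18daft2 in hydroxyurea) and -0.161 to -0.015 (phospholipid), and the sphingolipid median from -0.056 to 0.024 for Y18daft2 in hydroxyurea and 0.026 to 0.213 in the aft1d strain. The cause of these shifts was not tested. All genes had values on all 6 slides, so the looser filter changed nothing, and only 2 residual degrees of freedom limit every test.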

Other observations

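A spot annotated with both USV1 and FAS2, the latter the alpha subunit of fatty acid synthase, was left out of the members because it names more than 1 gene. It read 0.59 and 0.44 in rich medium, -0.04 and 0.59 for Y18daft2 in hydroxyurea and 0.49 and 0.49 in the aft1d strain, means of 0.52, 0.27 and 0.49 beside 0.48, 0.44 and 0.48 for FAS1. Which of its genes the spot measured is not known here. A second spot of ACC1, shared with SMM1, read -0.01 and 0.31, 0.14 and -0.47, and 0.02 and 0.17, so it did not show the values of the ACC1 spot. A spot shared by ERG27 and ICT1 read 0.33 and 0.41 in the aft1d strain, beside 0.23 and 0.26 for the ERG27 spots.

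OLE1, the desaturase that was left out by rule, read 1.20 and 0.83 in rich medium, 0.96 and 0.80 for Y18daft2 in hydroxyurea and 1.15 and 1.04 in the aft1d strain. SPT23, which activates OLE1, had slides of opposite sign in rich medium and in the aft1d strain.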
